A study of Solanum lycopersicum with 6 samples.

Results

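miR482, miR5300, miR6026 and miR6027 are miRNAs with recognized roles against transcripts of NLR immune receptors in tomato and its relatives. Their rows were taken from 6 small RNA lists by name alone, as every row whose name before the first hyphen is one of these 4 families with or without a locus letter. They make up 46 of the 413 locus listings and 92 of the 826 rows over the 6 libraries, and 4 of the 36 miRNA families found in any library. Each locus has a row for its 3p arm and a row for its 5p arm, of which one is named mature and the other star. All 92 rows have a value above 0, with 84 named Known and 8 named Probable.

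The lists come from 3 *hws-1* and 3 WT samples of the dwarf tomato cultivar 'Micro-Tom'. *hws-1* carries a weak mutant allele of *HAWAIIAN SKIRT*, which encodes an F-box protein known in plants to restrain miRNA accumulation. Both lines share the cultivar, and no treatment is given in the sources used here. Each sample bulked 5 pedicel segments (distal part, between the abscission zone and the calyx) at 10 days after anthesis (DAA). The study sequenced small RNAs from them to ask which miRNAs accumulate in the mutant. A single allele was compared with WT, and fewer cells of a type and less RNA per cell cannot be told apart in such bulk tissue. The lists hold only miRNAs, so that neither *HWS* mRNA nor markers of phloem, xylem or parenchyma could be checked.

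NLR proteins detect pathogen effectors inside plant cells, and a plant genome holds many genes for them. miR482 pairs with the sequence coding for the P-loop, a conserved nucleotide-binding motif, so that one miRNA can reach many NLR transcripts. Its cleavage products can be copied into double-stranded RNA and cut into phased secondary small RNAs, which spread the silencing to further NLR genes. miR5300 is related to miR482 and acts on NLR genes in tomato, while miR6026 and miR6027 were described in Solanaceae among the miRNAs that target such resistance genes.

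Values are given in TPM, which here means reads scaled to 1000000 with no correction for length. Which reads enter this scaling is not given in the sources used here. The step between low values shows what 1 read was worth, which was 5.55 to 8.76 TPM in *hws-1* and 3.19 to 3.88 TPM in WT. These steps correspond to a scaling base of 114212 to 180179 reads in *hws-1* and 257797 to 313526 reads in WT, and the depth of sequencing may be another. The base was smaller in all *hws-1* libraries than in any WT library, and such a difference in depth and the line cannot be told apart. The lists named 56 to 66 loci in *hws-1* and 68 to 88 in WT. The 4 families had 7 or 8 loci in *hws-1* and 8 in WT. miR5300, miR6026 and miR6027 had 1 locus in each of the 6 libraries. miR482 had 5 loci, except for 4 in *hws-1* replicates 1 and 3. Because the letters of miR482 follow the order of the list, the same letter need not stand for the same locus, and family and arm sums were used. The paper calls the samples of a line biological replicates, but no source used here says that they came from separate plants. P-values therefore rest on the spread between these samples only, which limma pools over features.

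miR482 dominated the group in every library. Its family sum was 23692, 41975 and 30337 TPM in *hws-1* replicates 1, 2 and 3, against 20342, 19676 and 20938 TPM in the WT replicates. miR6027 followed with 2189, 3506 and 2706 TPM in *hws-1*, against 2134, 2291 and 2807 TPM in WT. Next came miR6026, at 641, 1407 and 952 TPM in *hws-1* and 789, 694 and 730 TPM in WT. miR5300 was lowest, at 272, 693 and 686 TPM in *hws-1* and 475, 508 and 398 TPM in WT. The order miR482, miR6027, miR6026, miR5300 held in 6 of 6 libraries.

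Neighbours in this order differed by more than the spread between libraries. The ratio of miR482 to miR6027 ranged from 7.46 to 12.0 over the 6 libraries, with a mean log2 ratio of 3.29 ± 0.26 (SD, n = 6). That of miR6027 to miR6026 ranged from 2.49 to 3.85 (mean log2 ratio 1.62 ± 0.23), and that of miR6026 to miR5300 from 1.37 to 2.36 (0.80 ± 0.31). The two-sided exact paired permutation test gave p = 0.031 for each of the 3 pairs, also after Benjamini-Hochberg adjustment, which is the smallest p that 6 libraries can give. The order tested was taken from the means of these same libraries. This p follows whenever all 6 libraries have the same direction, whatever the size of the ratio. The ratio of miR482 to miR6027 was 10.8, 12.0 and 11.2 in *hws-1* and 9.53, 8.59 and 7.46 in WT, without overlap between the lines. How often pairs of other families lay apart in this way is not given here.

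**Figure D1:**
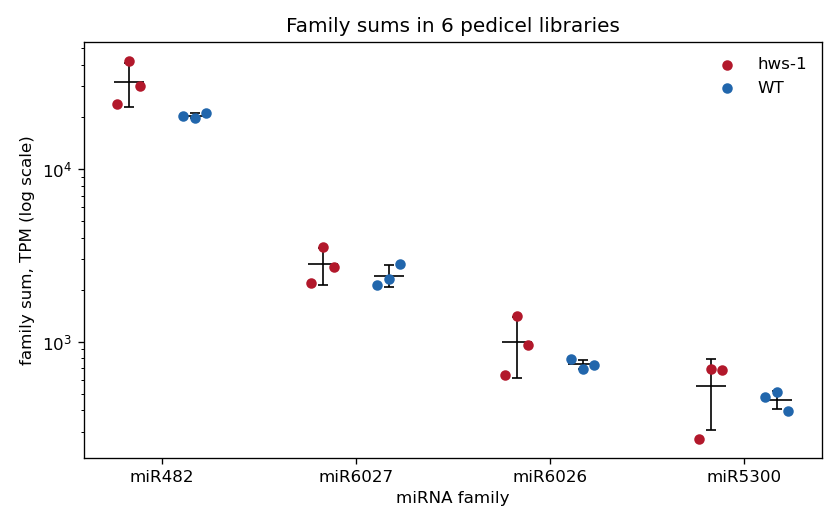
Family sums in TPM (log axis) of miR482, miR6027, miR6026 and miR5300, with *hws-1* left of WT, 1 point per library, and the bars giving the mean and SD of 3 libraries. The 6 points of miR482 lie between 19676 and 41975 TPM, far above those of miR6027, and the lines are apart for miR482 only.

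The 4 families together took 18.5%, 21.5% and 18.4% of the summed listed miRNAs in *hws-1*, and 13.3%, 16.9% and 15.6% in WT. miR482 alone accounted for 16.4%, 19.0% and 16.1% in *hws-1* and 11.4%, 14.4% and 13.2% in WT. The lines did not overlap for miR482, with means of 17.1% ± 1.6 in *hws-1* and 13.0% ± 1.5 in WT (SD, n = 3 each, two-sided exact permutation p = 0.10, the smallest that 3 against 3 libraries allow). On this scale 1 of the 4 families was higher without overlap, against 19% of all 21 families. The summed miRNAs include miR6022, which was listed in *hws-1* replicate 2 only. With miR6022 left out of the sum, a choice made after its value was seen, the shares in that library were 22.7% for the 4 families and 19.99% for miR482, and the count and the 19% were the same. For each of the other families the share overlapped between the lines, with means of 0.288% to 1.51% in *hws-1* and 0.295% to 1.54% in WT. Within the 4 families, miR482 made up 88.4%, 88.2% and 87.5% in *hws-1* and 85.7%, 84.9% and 84.2% in WT, without overlap (exact permutation p = 0.10). This share uses the same miR482 values as the share of the listed miRNAs, so that it is not a separate result.

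In the comparison of the lines, all 4 families had a higher mean in *hws-1*, but none passed the test. Summed over its loci, miR482 averaged 32001 ± 9255 TPM in *hws-1* and 20319 ± 631 TPM in WT (SD, n = 3 each), a ratio of 1.57. Its log2 fold change on the log2(TPM + 1) scale was 0.62 (SE 0.33, 95% confidence interval -0.04 to 1.27, limma adjusted p = 0.30). This SE was the same for all 21 families, because limma pooled their spread fully. The SD within lines of miR482 itself was 0.29 on the log2 scale. The ratio was 1.36 for miR6026 (limma adjusted p = 0.56), 1.19 for miR5300 (adjusted p = 0.74) and 1.16 for miR6027 (adjusted p = 0.72). Thus 0 of 4 families were called, against 14.3% of the 21 families present in all libraries, and the same counts hold at an unadjusted p under 0.05. A log2 fold change above 0 was found for 4 of 4, against 61.9% of all, although those of miR5300 and miR6027 lay below 0 after rescaling to the same listed sum (-0.068 and -0.011) or median centring (-0.13 and -0.072). miR482 was the only one of the 4 without overlap and higher in *hws-1*, which held for 19% of all families. The spread of miR482 was much wider in *hws-1*, where replicate 2 was highest in all 4 families. Without *hws-1* replicate 1, the lowest of its line for each family, miR482 passed (log2 fold change 0.81, limma adjusted p = 0.047).

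The arm that carried most reads differed between the families. The 3p arm, named mature, held most of miR482 and miR6026, whereas the 5p arm, named mature, held most of miR6027 and miR5300. For miR482 the 3p share was 97.5%, 97.2% and 96.2% in *hws-1* and 93.7%, 94.98% and 95.8% in WT. All 28 miR482 locus listings had the 3p arm above the 5p arm, with 91.4% to 98.8% of the locus on 3p. For miR6026 the 3p share was 86.1%, 88.7% and 93.6% in *hws-1* and 87.5%, 85.5% and 92.2% in WT.

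The arms of miR6027 and miR5300 that the lists name star were far from negligible. On the 3p arm of miR6027 lay 33.7%, 30.5% and 35.0% of the family in *hws-1*, against 26.2%, 25.2% and 25.0% in WT. For miR5300 it was 18.4%, 20.2% and 19.6% in *hws-1* and 13.4%, 9.16% and 10.8% in WT. In both families the 3 *hws-1* libraries were above the 3 WT libraries, by 7.57 percentage points for miR6027 and 8.26 for miR5300 on average. The 3p arm of miR5300 rests on 9 to 22 reads per library, so that counting error in its share is large. The 3p share of miR482 was also higher without overlap, by 2.12 points. With Known rows only, that difference was 1.13 points and the lines overlapped (exact permutation p = 0.40). This leaves out 8 rows, among them both arms of miR482b, the most abundant locus, in *hws-1* replicates 1 and 3 and WT replicate 1. The libraries then no longer held the same miR482 loci. The 3p share of miR6026 had a difference of 1.10 points, and it turned to -0.94 points without *hws-1* replicate 3. The lines overlapped for miR6026 (exact permutation p = 0.60). The exact permutation p was 0.10 for each of the 3 families without overlap, the smallest the design allows.

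**Figure D2:**
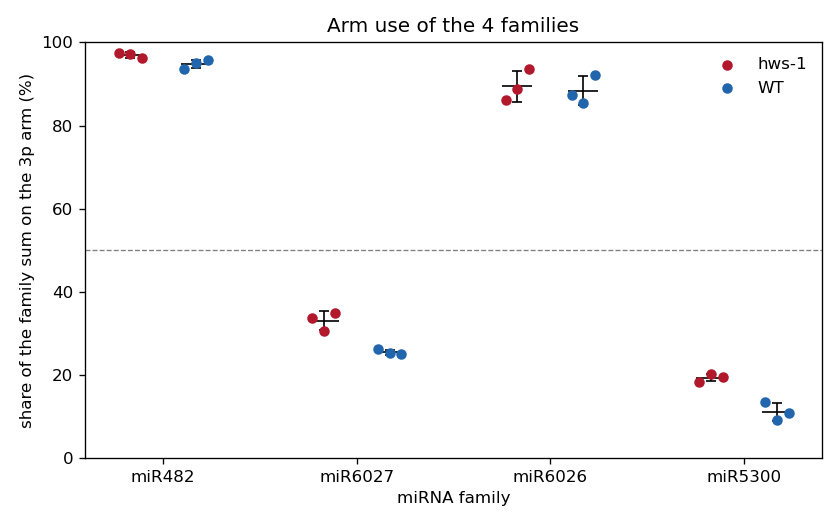
Share of each family sum on the 3p arm (%), with *hws-1* left of WT, 1 point per library, bars for the mean and SD of 3 libraries, and a dashed line where both arms would be equal. miR482 and miR6026 lie above the line and miR6027 and miR5300 below it in all 6 libraries, and *hws-1* is above WT without overlap in all but miR6026.

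The ratio of the 3p to the 5p arm was then compared over all 21 families with both arms, a fit chosen after these shares were seen. The difference in log2 ratio, *hws-1* minus WT, was 0.95 for miR5300 (SE 0.27, limma adjusted p = 0.12), whose 3p arm rests on 9 to 22 reads per library. For miR482 the difference was 0.79 (SE 0.30, limma adjusted p = 0.17). It was 0.53 for miR6027 (SE 0.24, limma adjusted p = 0.22) and 0.19 for miR6026 (SE 0.44, limma adjusted p = 0.79). None of the 4 passed, and 0% of all 21 families did. At an unadjusted p under 0.05 there were 2 of the 4, miR5300 and miR482, and 23.8% of all. Non-overlapping lines with a higher ratio in *hws-1* were found for 3 of the 4, against 23.8% of all. All 4 differences were above 0, as were 66.7% of all, and their median was 0.66 beside 0.34 over all 21. In the fit blocked on the replicate number, 2 of 21 families passed, and neither is miR482, miR5300, miR6026 or miR6027.

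**Figure D3:**
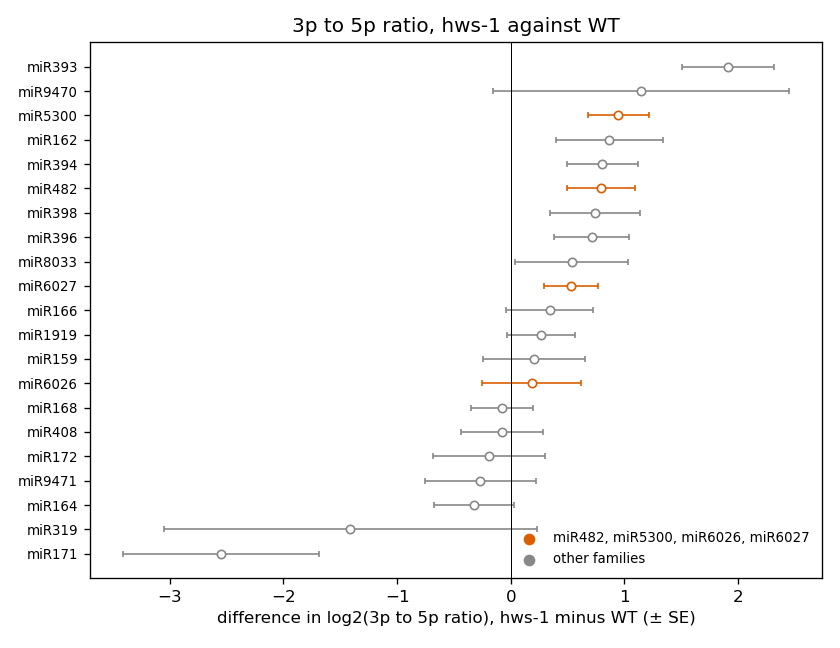
Difference between the lines in the log2 ratio of 3p to 5p (*hws-1* minus WT, ± SE from limma) for 21 families, with miR482, miR5300, miR6026 and miR6027 in orange and the other families in grey. No point is filled, since no family had an adjusted p under 0.05, and miR5300 (0.95) and miR482 (0.79) lie right of most other families.

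By arm, the log2 fold changes of the 4 families ran from 0.38 to 0.95 on 3p and from -0.14 to 0.20 on 5p, and none passed the test. miR482-3p reached 23092, 40784 and 29172 TPM in *hws-1*, against 19063, 18688 and 20048 TPM in WT. The lines did not overlap, at a ratio of means of 1.61 and a log2 fold change of 0.65 (SE 0.33, confidence interval -0.09 to 1.39, limma adjusted p = 0.28). miR482-5p, the star arm of the same loci, had 599, 1191 and 1165 TPM in *hws-1* and 1279, 988 and 890 TPM in WT. The lines overlapped there (log2 fold change -0.14, limma adjusted p = 0.85).

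miR6027-3p, which the lists name star, had 738, 1068 and 946 TPM in *hws-1*, against 559, 578 and 702 TPM in WT. Which arm is the active one was not tested. The lines did not overlap, and the log2 fold change was 0.57 (SE 0.31, confidence interval -0.13 to 1.28, limma adjusted p = 0.32). The other arm, miR6027-5p, named mature, overlapped between the lines, at 1451, 2437 and 1760 TPM in *hws-1* and 1576, 1713 and 2105 TPM in WT (log2 fold change 0.04, limma adjusted p = 0.97).

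miR5300-3p, the least abundant of the miR5300 arms, was listed at 49.95, 139.9 and 134.3 TPM in *hws-1* and 63.8, 46.5 and 42.9 TPM in WT. Replicates 2 and 3 of *hws-1* were above all WT libraries, and replicate 1 lay among them. These values rest on 9 to 22 reads per library, so that counting error is large. The log2 fold change was 0.95 (SE 0.44, limma adjusted p = 0.26), and without *hws-1* replicate 1 it was 1.43 (adjusted p = 0.018). The mature arm miR5300-5p had 222, 553 and 552 TPM in *hws-1* and 411, 462 and 355 TPM in WT, and the lines overlapped (log2 fold change 0.00, limma adjusted p = 0.996).

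Both arms of miR6026 overlapped between the lines. miR6026-3p had 552, 1248 and 890 TPM in *hws-1* and 690, 593 and 673 TPM in WT (log2 fold change 0.38, limma adjusted p = 0.54). miR6026-5p, with 7 to 31 reads per library, had 88.8, 159.0 and 61.3 TPM in *hws-1* and 98.9, 100.9 and 57.2 TPM in WT (log2 fold change 0.20, limma adjusted p = 0.82).

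In all, 0 of the 8 arm sums were called, against 7.14% of 42, and at an unadjusted p under 0.05 there were 0 of 8 against 19%. Lines without overlap and higher in *hws-1* were found for 2 of 8, miR482-3p and miR6027-3p, which is close to the 19% of all arm sums. A log2 fold change above 0 was found for 7 of 8, against 59.5% of all, with a median of 0.29 beside 0.06. By designation the median of the 10 rows was 0.024, beside 0.067 over all 58. These 10 rows hold miR482d (-0.72 on 3p and -1.92 on 5p), a letter that need not stand for the same locus. They leave out miR482b, which is named Known in some libraries and Probable in others. Of the 42 arm sums, 2 were called higher and 1 lower, which became 2 and 3 with median centring, 1 and 1 after rescaling to the same listed sum, and 3 and 3 in the fit blocked on replicate. None of the called sums in these fits belongs to the 4 families. Rescaling lowered the median over all arm sums by 0.21 and median centring by 0.48 on the log2 scale, to -0.15 and -0.41. The log2 fold changes of miR5300-5p, miR6026-5p and miR6027-5p then lay below 0. That of miR6026-3p did so with centring only, and none of them passed the threshold. The 3p arms were also closer to 0 with centring, at 0.17 for miR482-3p, 0.096 for miR6027-3p and 0.47 for miR5300-3p (limma adjusted p = 0.49, 0.70 and 0.28). After rescaling these were 0.44, 0.36 and 0.74.

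**Figure D4:**
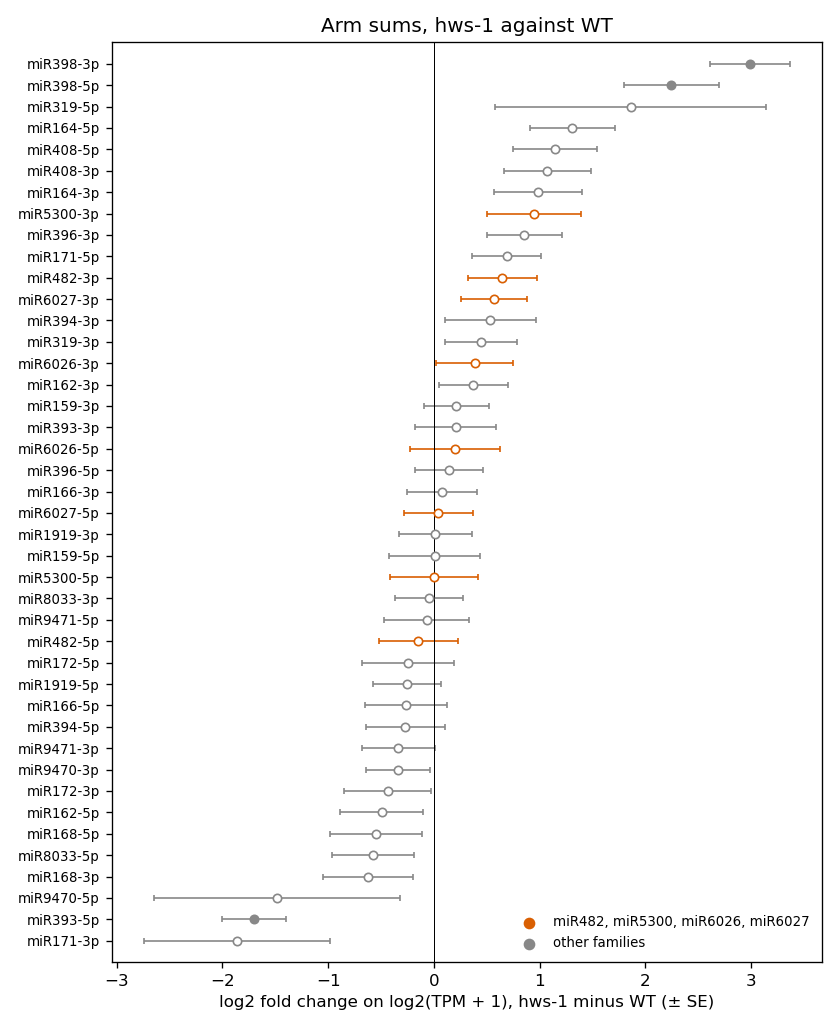
Log2 fold change of 42 family and arm sums on the log2(TPM + 1) scale (*hws-1* minus WT, ± SE from limma), sorted by size, with miR482, miR5300, miR6026 and miR6027 in orange, other families in grey, and filled points for an adjusted p under 0.05. The orange points run between -0.14 (miR482-5p) and 0.95 (miR5300-3p) and none is filled.

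The miR482 loci did not contribute alike. In every list 1 miR482 locus stood before miR5300, 1 stood between miR5300 and miR394b, and 2 or 3 followed miR394b. Among the RefSeq genes of assembly SLM_r2.1, MIR482a likewise precedes MIR5300, MIR482e lies between MIR5300 and MIR394, and MIR482d, MIR482b and MIR482c follow. The letters thus come in another order in RefSeq than in the lists, and whether rows and genes at the same place are the same locus was not tested. The loci were summed by place in the list, a choice made after their values were seen.

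The locus between miR5300 and miR394b, which every list calls miR482b, held most of the family. Its 3p arm had 17652, 30549 and 22527 TPM in *hws-1*, against 11214, 11952 and 13646 TPM in WT. The lines did not overlap, with means of 23576 ± 6512 TPM in *hws-1* and 12271 ± 1247 TPM in WT (SD, n = 3 each), a ratio of 1.92. The log2 fold change was 0.91 (SE 0.31, confidence interval 0.19 to 1.64, limma adjusted p = 0.19 on rows joined by name and arm). Its 5p arm differed by less than the spread between replicates, with means of 680 ± 244 TPM in *hws-1* and 670 ± 71.5 TPM in WT (ratio 1.02). The lists call this locus Probable in *hws-1* replicates 1 and 3 and in WT replicate 1, and Known in the others.

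At the other places the lines overlapped on 3p. Before miR5300, miR482a-3p had 3347, 5883 and 3594 TPM in *hws-1* and 4709, 3978 and 3754 TPM in WT, a ratio of 1.03. The loci after miR394b summed to 2094, 4352 and 3051 TPM in *hws-1* and 3140, 2759 and 2648 TPM in WT, a ratio of 1.11, although *hws-1* replicates 1 and 3 list 2 loci there and the other libraries 3. Of the difference of 11750 TPM between the line means of miR482-3p, 96.2% lay at miR482b. The values of miR482b-3p did not correspond to whole reads in any library (3515.83 reads in WT replicate 1). Whether reads shared between loci were divided otherwise where fewer loci are listed was not tested.

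Accordingly, miR482b held a larger share of miR482-3p in *hws-1*, at 76.4%, 74.9% and 77.2%, against 58.8%, 63.95% and 68.1% in WT. miR482a held 14.5%, 14.4% and 12.3% in *hws-1* and 24.7%, 21.3% and 18.7% in WT. The loci after miR394b held 9.07%, 10.7% and 10.5% in *hws-1* and 16.5%, 14.8% and 13.2% in WT. None of these 3 shares overlapped between the lines (two-sided exact permutation p = 0.10 each, the smallest possible), and the 3 shares sum to the whole, so that they are not separate results.

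**Figure D5:**
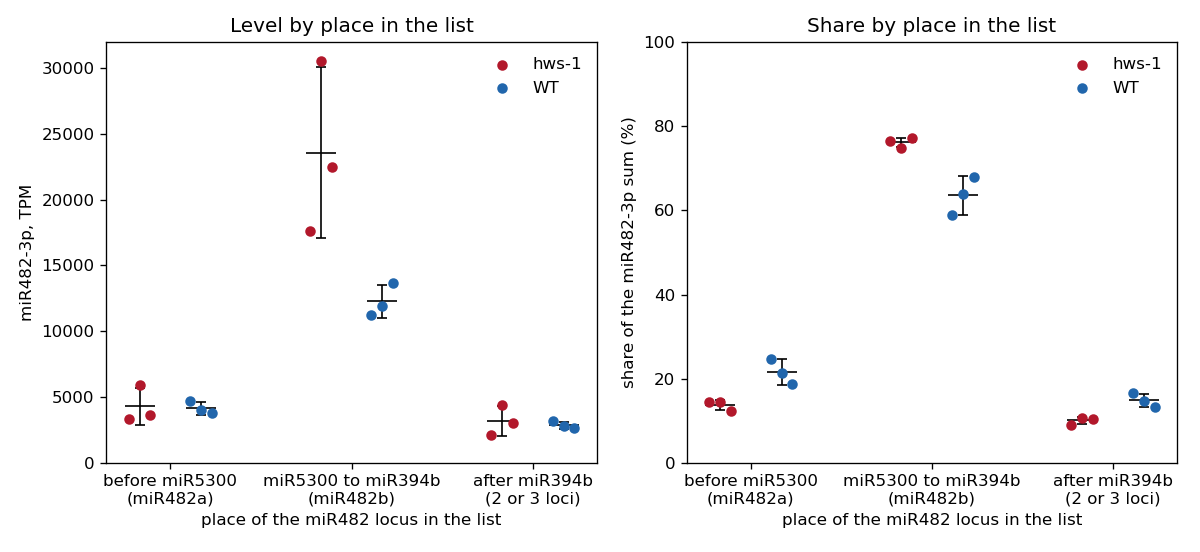
miR482-3p by the place of the locus in the list, as TPM (left) and as a share of the miR482-3p sum (right, %), with *hws-1* left of WT, 1 point per library, and bars for the mean and SD of 3 libraries. At miR482b all *hws-1* points are above the WT points on both axes, and at the other places the TPM overlap while the shares are lower in *hws-1*.

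Joined by name and arm, 0 of the 14 rows of the 4 families were called, against 3.57% of 84. At an unadjusted p under 0.05 there were 3 of 14 (miR482b-3p, miR482c-3p and miR482d-5p), against 21.4%. Lines without overlap and higher in *hws-1* were found for 3 of 14 (miR482b-3p, miR482c-3p and miR6027-3p), against 14.3%. Joined by full designation, 0 of 10 were called, against 6.9% of 58. At an unadjusted p under 0.05 there were 2 of 10 (miR482d-5p and miR5300-3p), against 19%. In the fit blocked on the replicate number, 8 of the 84 rows joined by name and arm passed, among them miR482c-3p (log2 fold change 1.85, limma adjusted p = 0.020) and miR482d-5p (log2 fold change -1.92, limma adjusted p = 0.016), and by designation 8 of 58 passed, among them miR482d-5p. The letters c and d, which also enter the counts above, are those that shift where 4 loci are listed. *hws-1* replicates 1 and 3, with 4 loci, had 1456 and 2233 TPM for miR482c-3p and 638 and 819 TPM for miR482d-3p. *hws-1* replicate 2, with 5 loci as in WT, had 356 TPM for miR482c-3p and 2468 TPM for miR482d-3p. The WT replicates had 305, 329 and 246 TPM for miR482c-3p and 2295, 1703 and 1466 TPM for miR482d-3p, so that only the libraries with 4 loci stood apart. Without *hws-1* replicate 2, miR482c-3p (2.63) and miR482d-5p (-2.67) also passed by name and arm (limma adjusted p = 0.0077 each), and by designation miR482d-5p passed under 7 of 14 alternatives. The miR482d-5p row rests on 2, 11 and 2 reads in *hws-1* and 31, 29 and 21 reads in WT, so that counting error is large.

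A list written by hand named 9 other families held to target resistance genes in Solanaceae or legumes. What each of them targets, NLR genes or others, was not checked. Of these 9, 2 were listed in any library and 0 in all 6. miR6024 was listed in 5 libraries, with miR6024-3p at 318 and 455 TPM in *hws-1* replicates 2 and 3 and 439, 535 and 434 TPM in WT. miR6024-5p had 299 and 221 TPM in these *hws-1* replicates and 185, 262 and 234 TPM in WT. Its level lay below that of miR6026 in each of these libraries for the 3p arm. miR6022 was listed in *hws-1* replicate 2 only. miR6019, miR6020, miR6023, miR6025, miR2118, miR1507 and miR2109 were named in no list, which says only that the lists do not hold them.

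The arm sums nearest in pattern were described by the root mean square difference of log2(TPM + 1) over the 6 libraries, each arm centred on its own mean, among 34 sums of other families. For miR482-3p the nearest were miR159-3p (0.24), miR396-5p (0.26) and miR396-3p (0.30). miR6027-3p was nearest to miR159-3p (0.22) and miR6026-3p to miR159-3p (0.21), while miR6027-5p was nearest to miR396-5p (0.14). For miR482-5p it was miR394-5p (0.15), for miR5300-5p miR1919-3p (0.25), for miR5300-3p miR394-3p (0.28) and for miR6026-5p miR396-5p (0.37). Within the 4 families, miR482-3p and miR6027-3p were closest, at 0.13. All these sums share the same libraries and their scaling.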

How the data were processed

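Small RNA was sequenced from 3 *hws-1* and 3 WT pedicel samples, grouped by their titles, which read mutant or WT. That the mutant is *hws-1* was taken from the paper. The authors processed each library with the sRNAminer pipeline and deposited 1 list per library, with values in RPM (called TPM in the paper). Its version and the genome build are not given in the sources used here. The members and lists were chosen with earlier results of these data known. Family sums, arm sums, 3p to 5p ratios and rows were log2 transformed after adding 1 TPM and fitted on line alone with limma 3.58.1 (R 4.3.3). P-values were adjusted by Benjamini-Hochberg over all features listed in the 6 libraries, with a threshold of 0.05. The fits, except that by name and arm, were tried on simulated data with independent noise at the spreads of these data. Such data hold no shift of a whole library and no reads shared between loci, and their rates are not given here. Single values were compared by two-sided exact permutation tests over the 20 assignments. The fits by name and arm, by place and of arm ratios were chosen after seeing the data. All rows of the 4 families are accounted for. The 9 other families came from a list written by hand, with their targets not checked. Nearest patterns were the 3 with the smallest difference among sums with a mean of at least 10 TPM. RefSeq (SLM_r2.1) was used for names and neighbours only. Python 3.11.15, numpy 2.4.6, pandas 2.3.3, scipy 1.17.1 and matplotlib 3.10.9 were used.

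The deviations of same-numbered libraries from their line means correlated at 0.36, 0.22 and 0.12 over arm sums and 0.16, 0.22 and 0.23 over designations. Over family sums they correlated at 0.39, 0.56 and 0.077. Pairs of different numbers reached 0.14 over arm sums, 0.14 over designations and 0.19 over family sums, so that a pairing was not settled. The numbers come from the labels. The main fits and the exact tests between lines used no pairing, and the replicate block was run as an alternative. Alternatives were a replicate block, an intensity trend, rescaling to the same listed sum, median centring, pseudocounts of 0.1 and 10, a minimum mean of 10 TPM, zeros for absent values, Known rows only, the highest row only, and leaving out each library. Leaving miR6022 out of the listed sum was added after seeing the data. Steps of the values give whole reads for a minority of rows, so no count model was used.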

Additional observations from a re-analysis of the deposited data

Results flagged for a closer look

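miR6022-3p stood at 11134 TPM in *hws-1* replicate 2, which corresponds to 1750.6 reads and 5.04% of the summed listed miRNAs of that library. It was not listed in the other 5 libraries, WT included, and it was not itself compared between the lines. It is part of the listed sum of that library, which enters the shares of the listed miRNAs and the rescaling, and both were also computed without it. The value is far above the 19.1 TPM that 3 reads make in that library, and miR6022-5p had 6.36 TPM, or 1 read. What set the listing in 1 library was not tested.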

How the results depend on the processing

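The order of the families kept its direction under all alternatives run. With 5 libraries an exact test cannot give a p below 0.0625, so each call of the order was lost there, at mean log2 ratios of 3.23 to 3.37 for miR482 over miR6027, 1.55 to 1.67 for miR6027 over miR6026 and 0.71 to 0.87 for miR6026 over miR5300. The 3p share of miR482 differed by 1.13 points with Known rows only (2.12 as reported), where the lines overlapped. The miR482 loci left out there differed between libraries. Leaving out 1 library gave -0.94 to 3.001 points for miR6026, below 0 without *hws-1* replicate 3 and without WT replicate 2 (-0.35), while those of miR5300 and miR6027 stayed above 0.

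Both scalings lowered the median log2 fold change over all features. Over family sums it became -0.011 with rescaling and -0.072 with centring, and over arm sums -0.15 and -0.41. Rescaling to the same listed sum turned the family sums of miR5300 (-0.068) and miR6027 (-0.011), the arm sums of miR5300-5p (-0.21), miR6026-5p (-0.0089) and miR6027-5p (-0.17), and miR482a-3p by designation (-0.21). With miR6022 left out of the listed sum, a choice made after seeing the data, rescaling gave -0.043 for the miR5300 family sum, -0.18 for miR5300-5p and -0.14 for miR6027-5p, while the miR6027 family sum (0.014) and miR6026-5p (0.016) were above 0, and 1 family sum was called. Median centring turned the family sums of miR5300 (-0.13) and miR6027 (-0.072), the arm sums of miR5300-5p (-0.47), miR6026-3p (-0.091), miR6026-5p (-0.28) and miR6027-5p (-0.43), and miR482a-3p by designation (-0.38).

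Leaving out 1 library at a time gave log2 fold changes of 0.40 to 0.81 for the miR482 family sum and -0.085 to 0.59 for that of miR5300. By arm they were -0.32 to 0.18 for miR482-5p, 0.69 to 1.43 for miR5300-3p, -0.22 to 0.44 for miR5300-5p, -0.17 to 0.51 for miR6026-5p and -0.16 to 0.21 for miR6027-5p. They were -0.25 to 0.16 for miR482a-3p and -0.59 to 0.13 for miR482a-5p by designation, -0.28 to 0.28 for miR482b-5p, and -0.16 to 0.47 for the 3p to 5p ratio of miR6026. Without *hws-1* replicate 1, the miR482 family sum (adjusted p = 0.047 from limma) and miR5300-3p (adjusted p = 0.018 from limma) passed. Counts of calls ranged from 1 to 3 for family sums, 2 to 5 for arm sums, 3 to 8 for designations, 2 to 8 for rows joined by name and arm and 0 to 1 for ratios.

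Counts also moved with other settings. Family sums gave 1 when rescaled or centred (3 as reported), and arm sums 5 when centred (3 as reported). Designations gave 8 with a pseudocount of 10, with a minimum mean of 10 TPM and with the replicate block (4 as reported). With the replicate block, arm sums gave 6, rows joined by name and arm 8 and ratios 2 (3, 3 and 0 as reported), and no family or arm sum of miR482, miR5300, miR6026 or miR6027 changed its call. The cause of these moves was not tested. Depth limits the star arms of miR5300 and miR6026, which rest on 7 to 31 reads a library. It also limits single rows such as miR482d-5p, with 2 reads in *hws-1* replicates 1 and 3.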
